A study of Mus musculus with 48 samples.

Results

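Bone marrow-derived macrophages of LynAKO mice were exposed for 2 h to lipopolysaccharide (LPS) or resiquimod (R848), and each ligand was compared with medium alone (NT). All libraries labelled LynAKO were taken: 4 with LPS, 4 with R848 and 4 NT, or 12 of the 48 libraries of the series. Lyn is a Src-family tyrosine kinase of myeloid and B cells that mouse cells make as 2 splice forms, LynA and LynB; LynAKO mice, by the name of their genotype, lack the LynA form. LPS came from Salmonella minnesota at 2 ng/mL and R848 was given at 20 ng/mL, so that each ligand was tested at a single dose and time and ligand and dose cannot be told apart. Precursors of 4 mice, 2 male (mice 1 and 2) and 2 female (mice 3 and 4), were differentiated separately in medium with macrophage colony-stimulating factor (M-CSF), and the cells of every group were rested overnight without M-CSF before treatment. Each mouse gave 1 library per treatment. WT, LynBKO and LynKO macrophages, treated with LPS, R848 or medium in the same way and also labelled as 2 male and 2 female mice per genotype, serve at the end as the comparison for the size of the LynAKO responses. The sources used here give neither the age of the mice nor how the alleles were made.

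LPS binds Cd14 and the Tlr4 complex at the cell surface, which signals through the adaptors Myd88 and Ticam1 (TRIF). R848 is a small imidazoquinoline that mouse macrophages sense in endosomes through Tlr7, which signals through Myd88 and not through TRIF. Both routes activate NF-kB and the MAP kinases, which induce cytokine and chemokine genes; the TRIF route also activates IRF3 and the gene for interferon beta, and secreted interferon then acts through its receptor and STAT factors on interferon-stimulated genes. Src-family kinases phosphorylate both activating and inhibitory receptors of macrophages.

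The LynAKO libraries held between 15106169 and 21781572 counts in genes, and between 16459 and 18653 genes had a count in each. Levels are given as counts per 1000000 (CPM), with the SD over the 4 mice, and changes as log2 fold changes with their standard error (SE). A gene is said to have risen or fallen only where the Benjamini-Hochberg adjusted p of edgeR's quasi-likelihood test over 13986 tested genes was under 0.05. Lyn itself, on chromosome 4 (chr4:3678115-3813122, plus strand, GRCm38), was counted over the whole gene, so the counts do not separate LynA from LynB. It stood at 208, 257, 206 and 206 CPM in the LPS libraries, 225, 257, 246 and 246 CPM in the R848 libraries and 107, 131, 124 and 110 CPM in the NT libraries. Both ligand groups lay above NT without overlap, and Lyn rose with LPS (log2 fold change 0.89 ± 0.10, adjusted p = 3.4e-07) and with R848 (1.06 ± 0.10, adjusted p = 5.8e-08). The same libraries of WT mice averaged 341.2 ± 17.0 CPM with LPS, 371.2 ± 28.2 CPM with R848 and 177.0 ± 10.4 CPM without ligand. Sex-linked genes matched the labelled sex in all 12 LynAKO libraries. The NT libraries of LynBKO mouse 4 and LynKO mouse 4, both labelled female, held Xist, the RNA of the inactive X chromosome (121 and 232 CPM), together with the Y-linked Ddx3y (45.9 and 26.5 CPM, with 0 counts in the other NT libraries labelled female), so they go against the label of a single female mouse.

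The macrophage genes Csf1r, the M-CSF receptor, and Lyz2, a lysozyme, were abundant in all treatments: Csf1r averaged 3937 CPM with LPS, 4547 CPM with R848 and 4025 CPM in NT. Lyz2 fell with LPS, a call that did not pass without mouse 2, 3 or 4 (adjusted p = 0.0659, 0.121 and 0.0737). Of 24 tested macrophage identity genes, 7 rose and 7 fell with LPS, and 6 rose and 6 fell with R848. Falls over all tested genes were 30.3% with LPS and 26.9% with R848. Of 9 tested genes on a list of neutrophil markers, 8 rose with LPS and 8 rose with R848. Of all tested genes 30.4% rose with LPS and 29.0% with R848. The summed level of the list was 261.7 to 293.8 CPM with LPS, 196.3 to 232.1 CPM with R848 and 113.0 to 138.9 CPM in NT. S100a8, an abundant neutrophil granule gene, averaged 7.42, 6.36 and 2.86 CPM in the same order. Of the listed T and NK cell genes 4 of 17 were abundant enough to test, of the B cell genes 2 of 12, and 4 and 3 genes of these lists had no count in any LynAKO library. The erythroid, mast and megakaryocyte list summed to 29.3 to 49.0 CPM with LPS, 35.2 to 53.9 CPM with R848 and 8.99 to 15.8 CPM in NT. Dendritic cell markers summed to 296.0 to 406.0, 199.2 to 278.1 and 236.8 to 308.9 CPM in the same order. Stromal and endothelial markers summed to 14.5 to 27.4, 10.5 to 12.1 and 9.07 to 11.7 CPM. The part of such cells in the results below was not tested, and in bulk RNA fewer cells of a type and less RNA per cell cannot be told apart.

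The 3 treatments separated in a principal component analysis of the 12 libraries. The first component held 67% of the variance and set NT apart from both ligands, with LPS farther from NT than R848. The second held 10.06% and placed the 4 LPS libraries on 1 side and the 4 R848 libraries on the other. The third held 5.26% and ordered the libraries by mouse.

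**Figure D1:**
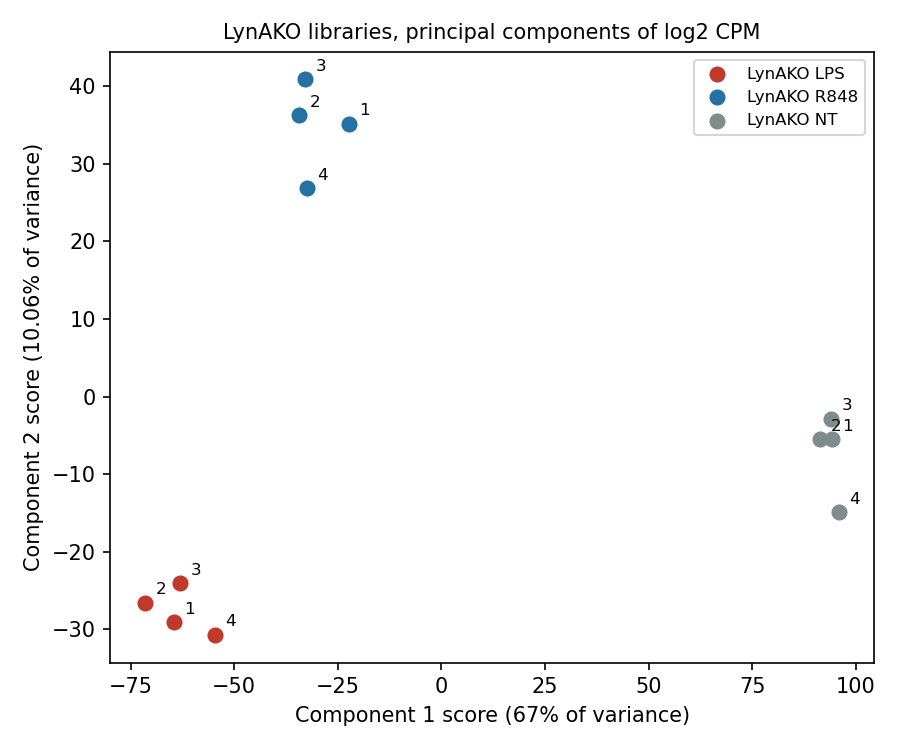
Principal component scores of the 12 LynAKO libraries on log2 CPM of the tested genes; the x axis is component 1 (67% of variance), the y axis component 2 (10.06%), and each point is 1 library labelled with its mouse number. LPS, R848 and NT libraries form 3 separate groups, and LPS and R848 lie on opposite sides of component 2.

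LPS changed 8484 of the 13986 genes (60.7%), 4247 of them higher (30.4%) and 4237 lower (30.3%). R848 changed 7828 (56.0%), 4060 higher (29.0%) and 3768 lower (26.9%). These shares are the background for the counts of gene lists given below. They depend on the scaling between libraries (TMM), which takes most genes as unchanged. Over all 48 libraries its factors followed treatment, at 0.82 to 0.87 with LPS, 0.93 to 0.97 with R848 and 1.19 to 1.20 in NT of LynAKO. How far the split of rises and falls rests on this scaling was not tested beyond the RLE alternative, which called 4317 higher and 4166 lower with LPS. Large changes were mostly rises: 494 genes rose at least 10-fold with LPS and 129 fell that far, while 337 rose and 78 fell at least 10-fold with R848. At least 100-fold, 105 genes rose and 4 fell with LPS, and 52 rose with R848. The direct comparison of LPS with R848 called 2463 genes (17.6%), 1356 higher with LPS (9.70%) and 1107 lower with LPS (7.92%). With the mouse as a block this count was 4048, without LynAKO mouse 2 it was 1457 and without mouse 3 it was 1450. The split moved as well: 2042 were higher and 2006 lower with the mouse as a block, 1088 and 647 without mouse 1, 961 and 496 without mouse 2, and 949 and 501 without mouse 3.

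Each gene was placed by its calls in the 3 comparisons. The LPS and R848 comparisons use the same NT libraries, so chance differences in NT push both in 1 direction. With both ligands 3439 genes rose and 3175 fell, together 78.0% of the LPS calls and 84.5% of the R848 calls. Among the shared rises, 742 were larger with LPS, 167 were larger with R848 and 2530 did not differ past the threshold; among the shared falls these numbers were 448, 45 and 2682. A gene was called ligand-specific where it passed with 1 ligand, did not pass with the other, and also differed between the ligands in the direct comparison. The fit behind these calls has no term for mouse, although each mouse gave all 3 treatments. A gene that did not pass with a ligand may therefore still respond to it. By this rule 339 genes rose and 260 fell with LPS alone, and 164 rose and 117 fell with R848 alone. A further 87 genes passed with both ligands in opposite directions. In 2030 genes a single ligand passed but the direct comparison did not, so they were left unclassified (1184 with LPS, 846 with R848). With the mouse as a block, the LPS-specific falls numbered 399, the R848-specific rises 322, the R848-specific falls 204 and the opposite genes 166. These small classes also moved with single mice. The R848-specific rises numbered 104, 77 and 63 without mouse 1, 2 or 3, and the LPS-specific falls 139, 115 and 108. The R848-specific falls numbered 75, 74 and 176 without mouse 2, 3 or 4, and the opposite genes 56 without mouse 3.

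**Figure D2:**
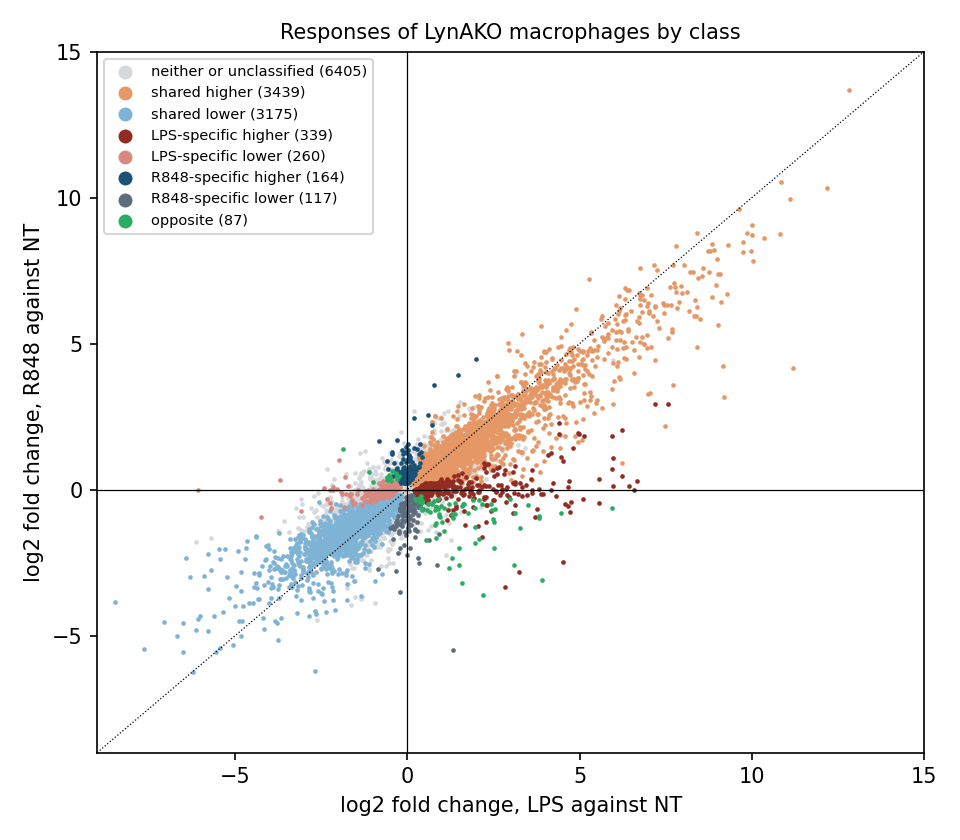
Log2 fold change with R848 against NT (y axis) over that with LPS against NT (x axis) for the 13986 tested genes of LynAKO macrophages, coloured by class; both axes share the NT libraries. Most coloured points lie along the diagonal, and the LPS-specific rises (339 genes) extend to the right along the zero line of the y axis.

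Cytokine, chemokine and prostaglandin genes were among those that rose far with both ligands. Il12b, the p40 subunit of interleukins 12 and 23 (chromosome 11), was not counted in any NT library, and stood at 73.1, 65.5, 38.4 and 19.6 CPM with LPS and 84.7, 104, 74.9 and 90.6 CPM with R848. Set against 3 counts over the 4 NT libraries, it was at least 1608-fold higher with LPS and at least 2888-fold higher with R848. All R848 libraries lay above all LPS libraries, and the direct comparison missed the threshold (log2 fold change −0.86 ± 0.29, adjusted p = 0.0548; with the mouse as a block −0.97 ± 0.20, adjusted p = 0.00162).

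Il6, an acute-phase cytokine, stood at 69.3, 112, 80.6 and 52.3 CPM with LPS and at 12.2, 23.9, 19.9 and 31.0 CPM with R848, against a single count in the 4 NT libraries together. The ratio of summed levels was 7678 for LPS (95% counting interval 1377 to 303400) and 2078 for R848 (372.4 to 82130). All LPS libraries were above all R848 libraries for Il6, the reverse of Il12b, and the direct log2 fold change was 1.84 ± 0.24 (adjusted p = 2.22e-05). Csf2 (GM-CSF) and Il12a (interleukin 12 p35) were also at 0 counts in NT and were at least 82.8-fold and 24.9-fold higher with LPS, and at least 34.2-fold and 14.4-fold higher with R848.

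Ptgs2 (cyclooxygenase 2), the inducible enzyme of prostaglandin synthesis, stood at 1878, 2516, 1958 and 1048 CPM with LPS, 863, 1792, 1833 and 1487 CPM with R848 and 0.758, 1.43, 0.649 and 1.22 CPM in NT. The ligand groups overlapped each other and were far above NT, with log2 fold changes of 10.83 ± 0.38 for LPS (adjusted p = 1.59e-13) and 10.53 ± 0.38 for R848 (adjusted p = 2.95e-13), and their direct difference did not pass (0.30 ± 0.24, adjusted p = 0.444). Ptges, the prostaglandin E synthase downstream of it, rose by 6.32 ± 0.22 and 5.97 ± 0.21. The prostaglandin receptors moved apart: Ptger4 rose with both ligands, while Ptger2 averaged 54.7 CPM with LPS, 13.4 CPM with R848 and 31.2 CPM in NT and so rose with LPS (0.81 ± 0.12) and fell with R848 (−1.22 ± 0.13).

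Of 24 tested inflammatory cytokines, 21 rose and 1 fell with LPS, and 19 rose and 1 fell with R848, with median log2 fold changes of 6.76 and 5.26 against −0.04 for all genes with either ligand. Osm was the cytokine that fell with both. Tnf stood between 2099 and 2829 CPM with LPS, between 1856 and 3288 CPM with R848 and between 11.0 and 13.7 CPM in NT, and the difference between its ligand groups did not pass (0.01 ± 0.14, adjusted p = 0.966). The direct comparison called 13 cytokines higher with LPS, and with the mouse as a block it also called Il12b lower. Il1a, an interleukin 1 form, averaged 781 ± 130 CPM with LPS, 404 ± 108 CPM with R848 and 0.762 ± 0.282 CPM in NT. Il15, a growth factor of NK and memory T cells, averaged 163, 38.1 and 19.1 CPM in the same order.

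Of 20 tested chemokines, 18 rose and 1 fell with LPS, and 17 rose and 1 fell with R848. The neutrophil attractant Cxcl3 (chromosome 5) stood at 524, 517, 522 and 391 CPM with LPS, 359, 447, 479 and 625 CPM with R848 and 0.632, 0.438, 0.344 and 1.08 CPM in NT, with log2 fold changes of 9.63 ± 0.26 and 9.61 ± 0.26. Cxcl2, of the same family, was the 1 chemokine lower with LPS in the direct comparison (−0.53 ± 0.16, adjusted p = 0.0237; without mouse 2, 3 or 4 it did not pass, at 0.0685, 0.123 and 0.128), where 11 were higher with LPS; with the mouse as a block 2 were lower. Cxcl10 and Cxcl11, ligands of the receptor CXCR3, were far higher with LPS. Cxcl10 stood at 2573, 3819, 2923 and 2901 CPM with LPS, 33.4, 53.4, 42.8 and 57.7 CPM with R848 and 2.91, 7.72, 4.58 and 5.67 CPM in NT. The 3 groups did not overlap, and the direct log2 fold change was 6.02 ± 0.24 (adjusted p = 1.68e-11). Cxcl11 led the direct differences (7.02 ± 0.26, adjusted p = 8.78e-12), at 27.9, 39.6, 46.1 and 45.3 CPM with LPS and 0.206, 0.284, 0.209 and 0.5004 CPM with R848, with 1 count in NT.

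**Figure D3:**
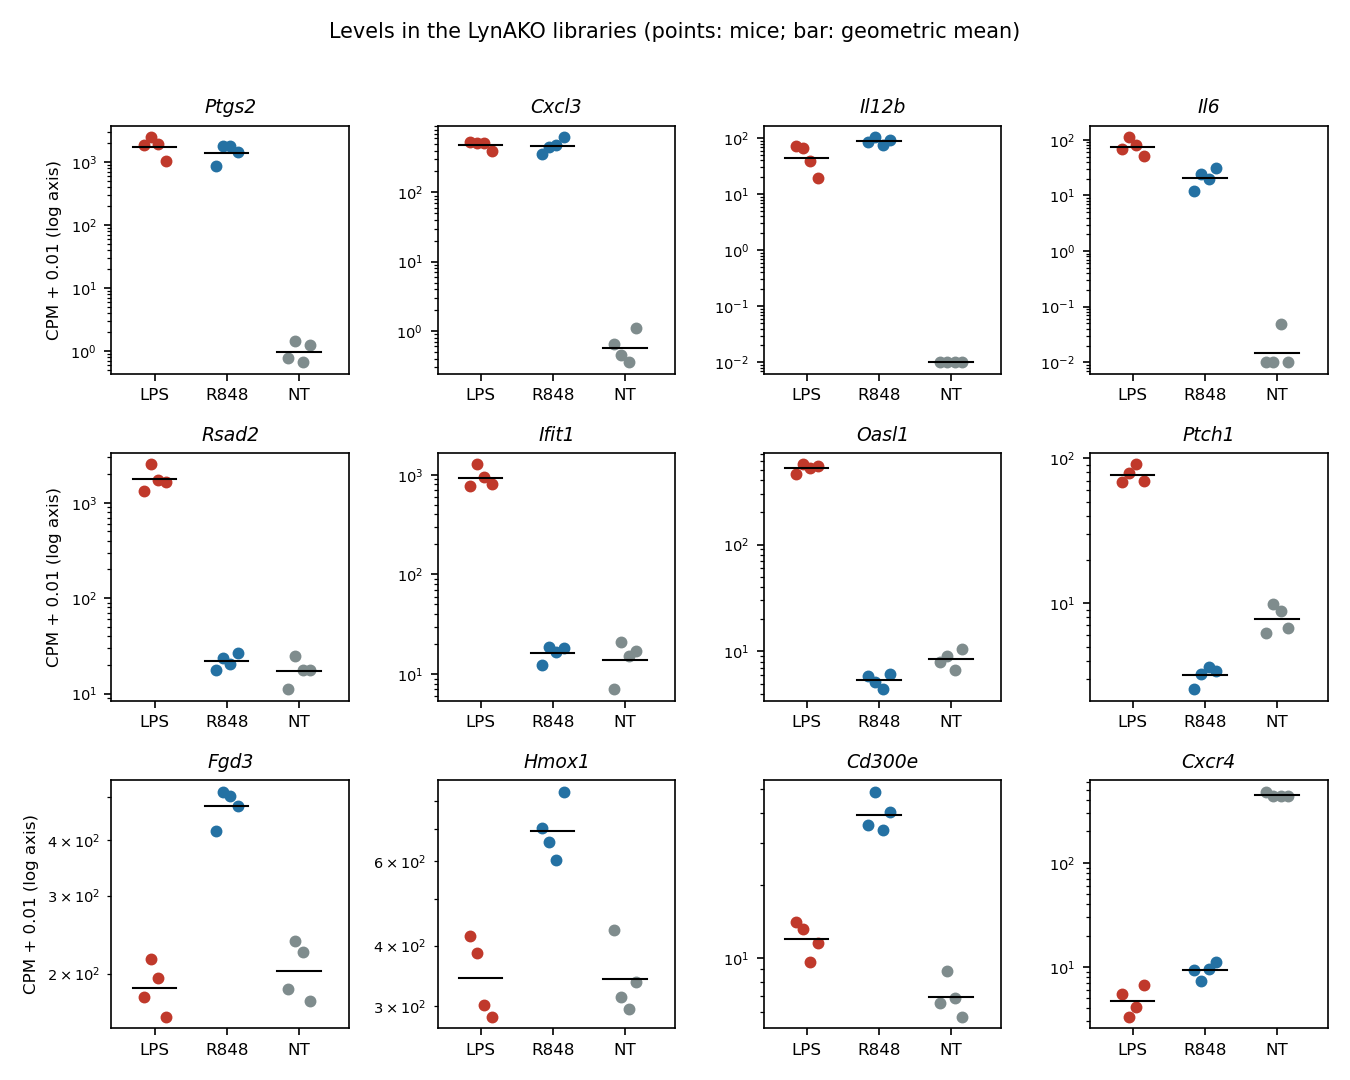
Levels of 12 genes in the 12 LynAKO libraries, in CPM on a log axis after adding 0.01 CPM; each point is 1 mouse and the bar is the geometric mean of the plotted values. Cxcl3 and Ptgs2 overlap between the ligand groups, Rsad2, Ifit1, Oasl1 and Ptch1 are high in the 4 LPS libraries only, Fgd3, Hmox1 and Cd300e are highest with R848, and Cxcr4 is lowest with LPS.

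Genes of NF-kB and its inhibitors rose with both ligands in nearly the full list: 14 of 15 with LPS and 15 of 15 with R848, with median log2 fold changes of 2.82 and 2.35. The subunit genes Rel and Relb rose to similar levels, at 271 and 228 CPM with LPS, 248 and 206 CPM with R848 and 49.2 and 44.4 CPM in NT. Nfkbia, the inhibitor IkB alpha, rose by 3.95 ± 0.09 with LPS and 3.58 ± 0.09 with R848. Nfkbiz (IkB zeta), a nuclear cofactor needed for a subset of secondary genes, rose more with R848: it stood at 794, 919, 809 and 613 CPM with LPS, 1196, 1602, 1512 and 1568 CPM with R848 and 25.1, 33.5, 35.6 and 22.4 CPM in NT. All R848 libraries were above all LPS libraries, and the direct log2 fold change was −0.92 ± 0.15 (adjusted p = 0.000229).

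Negative regulators of Toll-like receptor signalling rose too: 12 of 14 with LPS and 11 of 14 with R848, while Sigirr and Pdlim2 fell with both. Tnfaip3 (A20), a ubiquitin-editing enzyme, averaged 2170 ± 53.0 CPM with LPS, 1162 ± 124 CPM with R848 and 21.5 ± 5.09 CPM in NT. Peli1, an E3 ligase of the TRIF route, differed most between the ligands in this list: it stood at 435, 595, 483 and 379 CPM with LPS, 46.1, 50.6, 52.5 and 44.9 CPM with R848 and 39.3, 44.4, 38.2 and 32.7 CPM in NT. R848 lay just above NT (0.34 ± 0.13, adjusted p = 0.0321, which was 0.0685 without mouse 1 and 0.159 without mouse 3), and LPS lay far above R848 (3.27 ± 0.14, adjusted p = 1.91e-11).

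The receptors of the ligands themselves moved in different directions. Tlr4 fell with LPS (−0.89 ± 0.16) and with R848 (−0.44 ± 0.16), at 60.1, 81.5 and 111 CPM in LPS, R848 and NT, whereas Cd14 rose by 1.74 ± 0.10 and 1.63 ± 0.09. The fall of Tlr4 with R848 did not pass without mouse 2 (adjusted p = 0.0953) or mouse 3 (0.0916). Tlr7 rose with LPS (0.82 ± 0.18) and had a log2 fold change of 0.37 ± 0.18 with R848 that did not pass (adjusted p = 0.0918; with the mouse as a block adjusted p = 7.14e-05). Tlr2 rose by 2.69 ± 0.10 and 2.95 ± 0.10. Tlr3, the receptor of double-stranded RNA, rose with LPS (1.06 ± 0.18) and fell with R848 (−0.64 ± 0.18). In all, 18 of 28 receptor and adaptor genes rose and 6 fell with LPS, and 16 rose and 5 fell with R848; 2 were lower with LPS than with R848, and 9 were with the mouse as a block.

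Dual-specificity phosphatases, which switch off MAP kinases, split between the ligands. Dusp2 averaged 159 CPM with LPS, 69.4 CPM with R848 and 1.13 CPM in NT, and its direct log2 fold change was 1.18 ± 0.12. Dusp4 and Dusp8 were higher with R848, at 34.9 and 2.58 CPM with LPS, 90.5 and 6.28 CPM with R848 and 12.5 and 0.426 CPM in NT (direct log2 fold changes −1.39 ± 0.21 and −1.29 ± 0.30). Dusp6 fell with both, to 4.50 ± 2.13 CPM with LPS and 1.83 ± 0.690 CPM with R848, against 10.6 ± 2.15 CPM in NT. Among immediate early transcription factors 19 of 28 rose and 7 fell with LPS, and 16 rose and 7 fell with R848. Jun had a change with LPS that did not pass (−0.13 ± 0.12, adjusted p = 0.37) and rose with R848 (0.74 ± 0.12), and Fos fell with both (−2.33 ± 0.19 and −1.23 ± 0.18). Myc rose by 1.86 ± 0.21 with LPS and 2.60 ± 0.21 with R848. Of the genes of cytokine mRNA decay, Zfp36 (tristetraprolin) rose by 2.45 ± 0.11 and 1.81 ± 0.11, while its family member Zfp36l2 fell to 24 ± 2.71 CPM with LPS and 51.8 ± 5.57 CPM with R848, against 524 ± 33.4 CPM in NT.

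Of the lists, that of interferon-stimulated genes differed most uniformly between the ligands. All 54 on the list rose with LPS and all 54 were higher with LPS than with R848 by edgeR, with median log2 fold changes of 2.77 and 2.46. With R848 17 rose, 7 fell and 30 did not pass, with a median of 0.06; with the mouse as a block 20 rose and 13 fell. The 7 that rose with LPS and fell with R848 were Oasl1, Ifit3b, Ifit3, Rtp4, Oasl2, Oas2 and Oas3. The falls of Ifit3b, Oasl2 and Oas2 did not pass without mouse 2 (adjusted p = 0.0917, 0.0533 and 0.16) or mouse 3 (0.152, 0.152 and 0.172), and that of Oas3 did not pass without mouse 3 (0.152). Ifit3 and Ifit3b are near-identical copies, so how their reads divide between them is uncertain. The list was drawn up with earlier results of these data known. Neither its direction with LPS nor its difference between LPS and R848 is therefore independent evidence.

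The upstream sequences of 4 of these LPS-biased genes, and of Cxcl3 as a gene that both ligands raised alike, show the motifs in question. They are the 250 bases before the RefSeq start (GRCm38.p6), read 5′ to 3′ on the strand of the gene, and capitals mark matches on either strand to an interferon-stimulated response element core (ISRE core: GAAA, any 2 bases, GAAA) or a kappa-B site (GGGA, any 2 bases, TTCC). Rsad2 and Ifit1 were LPS-specific, Ifit3 was opposite, and Cxcl10 rose with both and more with LPS. In Cxcl3 a match on each strand overlaps into 1 capital run.
Ifit1, chr19:34640639-34640888, plus strand: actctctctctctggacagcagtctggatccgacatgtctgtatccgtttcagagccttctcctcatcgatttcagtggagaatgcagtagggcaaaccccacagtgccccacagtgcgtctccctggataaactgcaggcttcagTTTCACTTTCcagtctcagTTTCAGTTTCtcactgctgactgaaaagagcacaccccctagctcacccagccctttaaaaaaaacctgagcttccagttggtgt
Rsad2, chr12:26456453-26456702, minus strand: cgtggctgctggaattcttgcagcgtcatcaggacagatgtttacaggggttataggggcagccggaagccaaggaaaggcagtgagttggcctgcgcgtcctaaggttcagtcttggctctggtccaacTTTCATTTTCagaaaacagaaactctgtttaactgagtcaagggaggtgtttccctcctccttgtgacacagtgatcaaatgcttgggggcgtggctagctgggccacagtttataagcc
Ifit3, chr19:34583279-34583528, plus strand: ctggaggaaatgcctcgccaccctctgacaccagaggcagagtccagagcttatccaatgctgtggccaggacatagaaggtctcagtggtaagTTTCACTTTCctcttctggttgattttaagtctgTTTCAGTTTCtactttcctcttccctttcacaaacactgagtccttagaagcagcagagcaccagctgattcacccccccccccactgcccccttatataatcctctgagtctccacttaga
Cxcl10, chr5:92348890-92349139, minus strand: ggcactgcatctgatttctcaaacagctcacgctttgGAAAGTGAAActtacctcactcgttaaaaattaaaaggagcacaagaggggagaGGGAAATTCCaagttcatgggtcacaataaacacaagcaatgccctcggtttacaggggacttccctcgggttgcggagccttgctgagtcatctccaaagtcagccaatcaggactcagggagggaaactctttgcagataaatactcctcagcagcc
Cxcl3, chr5:90785851-90786100, plus strand: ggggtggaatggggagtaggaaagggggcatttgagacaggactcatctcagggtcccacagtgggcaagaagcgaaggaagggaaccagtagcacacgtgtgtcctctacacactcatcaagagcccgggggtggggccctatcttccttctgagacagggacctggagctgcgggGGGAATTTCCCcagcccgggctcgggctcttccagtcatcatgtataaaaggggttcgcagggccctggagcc

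Ifit1 holds 2 ISRE cores, from base −104 to −95 and −85 to −76 before the start, Ifit3 holds 2, from −156 to −147 and −122 to −113, and Rsad2 holds 1, from −120 to −111. Cxcl10 holds 1 ISRE core from −213 to −204 and 1 kappa-B match from −159 to −150, and Cxcl3 holds kappa-B matches between −73 and −63 and no ISRE core. The shares below cover the same 250 bases before the start. Of the 12754 promoters of 10019 matched tested genes, 2.88% held an ISRE core and 1.28% a kappa-B match. ISRE cores stood in 12.7% of 307 promoters of LPS-specific rises, 17.4% of 92 promoters of opposite genes, 7.03% of 128 promoters of R848-specific falls, 2.74% of 3318 promoters of shared rises and 1.96% of 153 promoters of R848-specific rises. Of the promoters of the listed interferon-stimulated genes 40.4% held one, and of the 12 chemokine promoters 33.3% held a kappa-B match. The STAT site TTCNNNGAA, the other motif searched, stood in 5.98% of all promoters and 6.84% of those of LPS-specific rises. These are matches of letters, and several promoters of 1 gene overlap.

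Rsad2 (viperin), an antiviral enzyme (chromosome 12), stood at 1316, 2524, 1727 and 1643 CPM with LPS, 17.5, 23.5, 20.4 and 26.4 CPM with R848 and 11.0, 24.8, 17.6 and 17.8 CPM in NT. R848 and NT overlapped and LPS was far above both, with log2 fold changes of 6.66 ± 0.26 for LPS (adjusted p = 5.2e-13) and 6.35 ± 0.26 for LPS over R848. R848 against NT gave 0.31 ± 0.22 (adjusted p = 0.238; with the mouse as a block 0.34 ± 0.10, adjusted p = 0.00752).

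Ifit1, which binds viral RNA, stood at 767, 1274, 962 and 805 CPM with LPS, 12.4, 18.5, 16.6 and 18.2 CPM with R848 and 6.99, 21.1, 15.2 and 16.9 CPM in NT. Here too R848 overlapped NT (0.13 ± 0.25, adjusted p = 0.667) while LPS stood apart (5.98 ± 0.28). Oasl1, a member of the oligoadenylate synthetase family, stood at 458, 563, 521 and 545 CPM with LPS, 5.91, 5.16, 4.39 and 6.19 CPM with R848 and 7.92, 9.11, 6.68 and 10.4 CPM in NT. Every R848 library was below every NT library, so Oasl1 rose with LPS (5.93 ± 0.14, adjusted p = 1.36e-15) and fell with R848 (−0.64 ± 0.14, adjusted p = 0.000887).

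Ifit3 stood at 314, 571, 396 and 416 CPM with LPS, 11.2, 19.7, 13.9 and 19.0 CPM with R848 and 18.2, 46.2, 24.7 and 32.1 CPM in NT. Its R848 and NT ranges overlapped in their ends, and the fall with R848 passed (−0.92 ± 0.25, adjusted p = 0.00506). Other LPS-specific rises led by the direct difference were Mx2, Cmpk2 and Tnfsf10 (TRAIL, a death ligand), at 276, 852 and 33.5 CPM with LPS, 4.95, 13.04 and 0.742 CPM with R848 and 3.63, 18.1 and 1.26 CPM in NT. With the mouse as a block Mx2 passed as higher with R848 (adjusted p = 0.0042) and Cmpk2 as lower (adjusted p = 0.00921).

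Ptch1, the hedgehog receptor and no member of the interferon list, followed the same opposite pattern. It stood at 68.7, 79.2, 91.0 and 69.8 CPM with LPS, 2.52, 3.23, 3.63 and 3.38 CPM with R848 and 6.24, 9.87, 8.86 and 6.70 CPM in NT, with no overlap between groups. Its log2 fold changes were 3.28 ± 0.15 with LPS (adjusted p = 4.06e-12) and −1.31 ± 0.17 with R848 (adjusted p = 5.07e-06).

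Of 15 tested interferon-inducible GTPases, which act against intracellular microbes, 14 rose with LPS. With R848 7 rose and 3 fell, and 5 did not pass, 4 of which were LPS-specific rises. Gbp5, Gbp2, Gbp3 and Gbp6 were among those that rose with R848: Gbp5 averaged 1013 ± 153 CPM with LPS, 155 ± 21.3 CPM with R848 and 1.81 ± 0.612 CPM in NT. The immunity-related GTPases Igtp, Irgm1 and Irgm2 fell with R848, with Irgm2 at 297 CPM with LPS, 19.1 CPM with R848 and 33.8 CPM in NT. The fall of Irgm1 (−0.32 ± 0.12) did not pass without mouse 2 (adjusted p = 0.0579) or mouse 3 (0.137).

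Of 25 tested interferon, IRF and STAT genes, 14 rose with both ligands, 5 were LPS-specific rises and 1 was opposite. Ifnb1, interferon beta, had 55 counts over the 4 LPS libraries, 3 over the R848 libraries and 0 in NT, and was at least 31.8-fold higher with LPS than NT; R848 and NT were at or under 3 counts. Stat2 stood at 334, 479, 414 and 372 CPM with LPS, 37.5, 52.1, 43.2 and 46.1 CPM with R848 and 55.8, 82.5, 76.8 and 78.1 CPM in NT, so that every R848 library was below every NT library (−0.70 ± 0.14, adjusted p = 0.000301). Irf7 and Irf9 rose with LPS by 1.92 ± 0.16 and 1.05 ± 0.08; their R848 values of −0.31 ± 0.15 and −0.15 ± 0.08 did not pass, while both passed as lower with the mouse as a block (adjusted p = 0.00444 and 0.0424). Irf8, a lineage factor of macrophages, fell with both, to 172 ± 23.6 CPM with LPS and 91.8 ± 13.2 CPM with R848, against 252 ± 10.1 CPM in NT.

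Feedback inhibitors of cytokine receptors rose steeply with either ligand. Socs3 averaged 2739 CPM with LPS, 1852 CPM with R848 and 6.39 CPM in NT (8.74 ± 0.14 and 8.19 ± 0.14). Socs1 averaged 68.1, 10.1 and 0.470 CPM and Cish 74.9, 20.5 and 1.10 CPM in the same order. Over the list of 25 interferon, IRF and STAT genes, 20 rose and 1 fell with LPS and 14 rose and 3 fell with R848; with the mouse as a block 2 fell with LPS and 5 with R848.

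**Figure D4:**
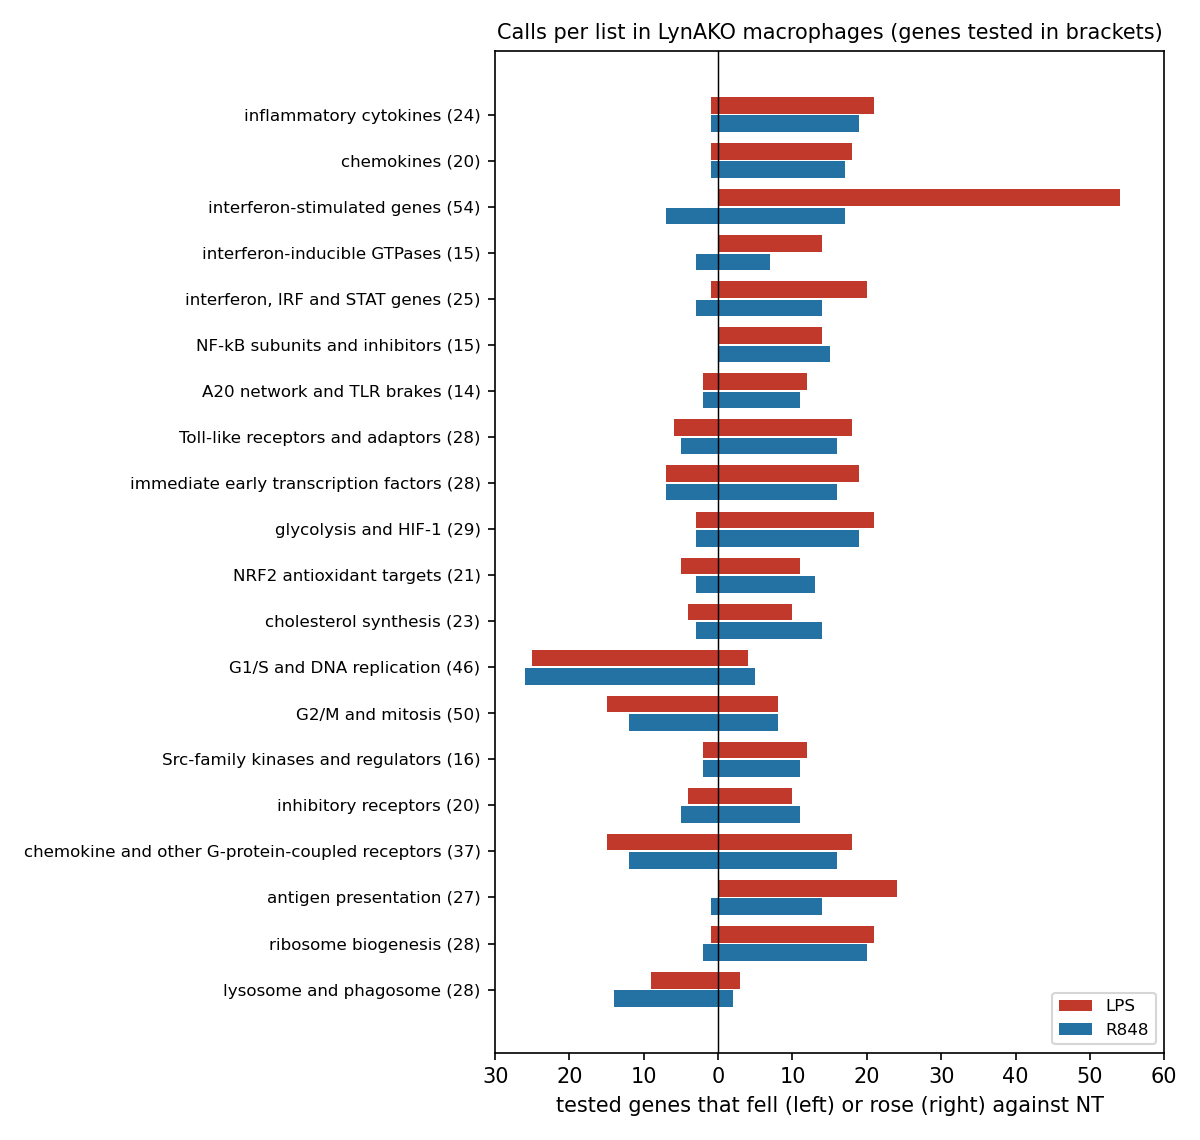
Number of tested genes of 20 lists that rose (to the right) or fell (to the left) with LPS (upper bar of each pair) and R848 (lower bar) against NT in LynAKO macrophages, edgeR adjusted p under 0.05. The interferon-stimulated genes have 54 rises with LPS and 17 rises and 7 falls with R848, and the G1/S list is mostly falls with both.

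Genes that favoured R848 were fewer and their differences smaller: 3 genes were at least 10-fold lower with LPS than with R848, against 77 at least 10-fold higher. Fgd3, a guanine nucleotide exchange factor of small GTPases (chromosome 13), led the R848-specific rises, at 177, 216, 195 and 160 CPM with LPS, 420, 516, 503 and 480 CPM with R848 and 184, 237, 224 and 174 CPM in NT. LPS and NT overlapped (−0.13 ± 0.12, adjusted p = 0.341) and R848 stood above both (1.24 ± 0.12, adjusted p = 9.58e-08). Kcnj2, an inward rectifier potassium channel, and Plk3, a polo-like kinase, followed at 16.4 and 8.88 CPM with LPS, 39.9 and 21.4 CPM with R848 and 21.5 and 8.92 CPM in NT.

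Cd300e, an activating receptor of monocytes, rose with both ligands and more with R848. It stood at 14.04, 13.2, 9.66 and 11.6 CPM with LPS, 35.6, 48.8, 33.8 and 40.1 CPM with R848 and 6.53, 8.79, 6.84 and 5.71 CPM in NT, with no overlap between the 3 groups (direct log2 fold change −1.72 ± 0.15, adjusted p = 2.96e-07). Marco, a scavenger receptor, averaged 5.55 CPM with LPS, 18.0 CPM with R848 and 0.368 CPM in NT, and its LPS and R848 ranges overlapped. Gdf15, a stress-induced cytokine, averaged 4.19 CPM, 13.7 CPM and 2.40 CPM in the same order.

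Id3, an inhibitor of helix-loop-helix factors, moved in opposite directions: it stood at 124, 136, 123 and 104 CPM with LPS, 337, 394, 378 and 464 CPM with R848 and 241, 246, 251 and 306 CPM in NT. The 3 groups did not overlap, with log2 fold changes of −1.10 ± 0.11 with LPS (adjusted p = 1.75e-07) and 0.60 ± 0.11 with R848 (adjusted p = 0.000178). Cd163, the haemoglobin scavenger receptor, averaged 8.13 CPM with LPS, 19.4 CPM with R848 and 12.0 CPM in NT. It rose with R848 (0.71 ± 0.24, adjusted p = 0.0173, which was 0.0831 without mouse 3 and 0.0525 without mouse 4), and its value with LPS was −0.56 ± 0.25 (adjusted p = 0.0589; with the mouse as a block adjusted p = 0.000262).

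Several targets of NRF2, the antioxidant transcription factor, were higher with R848 than with LPS. Over the list of 21, 11 rose and 5 fell with LPS, and 13 rose and 3 fell with R848. Of all tested genes 30.4% rose with LPS and 29.0% with R848. The direct comparison called 1 of the list higher and 8 lower with LPS, against 9.70% and 7.92% of all tested genes. With the mouse as a block 2 were higher. Hmox1 (heme oxygenase 1) stood at 418, 387, 302 and 285 CPM with LPS, 702, 655, 602 and 836 CPM with R848 and 431, 313, 296 and 336 CPM in NT. LPS and NT overlapped (0.02 ± 0.14, adjusted p = 0.926), and R848 was above both (1.03 ± 0.14, adjusted p = 8.75e-06).

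The glutamate-cysteine ligase subunits Gclm and Gclc, which make glutathione, fell with LPS and rose with R848. Gclm stood at 136, 166, 184 and 138 CPM with LPS, 265, 301, 298 and 315 CPM with R848 and 214, 256, 254 and 224 CPM in NT, and each step was free of overlap (−0.60 ± 0.10 with LPS, 0.32 ± 0.10 with R848). The gene of NRF2 itself, Nfe2l2, rose by 1.26 ± 0.12 with LPS and 1.88 ± 0.12 with R848, and that of its inhibitor Keap1 was opposite (0.24 ± 0.09 and −0.37 ± 0.09). Slc7a11, the cystine importer, rose by 5.61 ± 0.31 and 5.84 ± 0.31 with no direct difference past the threshold (adjusted p = 0.586). The rises of Gclm and Gclc with R848 and of Keap1 with LPS were small, and single mice decided their calls: Gclm had an adjusted p of 0.0686 without mouse 4, Gclc 0.0663 without mouse 2 and 0.0518 without mouse 3, and Keap1 0.204 without mouse 2 and 0.0999 without mouse 3.

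Of 23 cholesterol synthesis genes 10 rose and 4 fell with LPS, and 14 rose and 3 fell with R848, where 30.4% and 29.0% of all tested genes rose. The direct comparison called 6 of them lower with LPS and 0 higher. Mylip, an LXR target that degrades the LDL receptor, fell with LPS and not with R848: it stood at 48.3, 43.0, 36.1 and 35.9 CPM with LPS, 127, 111, 97.4 and 99.3 CPM with R848 and 125, 118, 103 and 92.4 CPM in NT. R848 and NT overlapped throughout (−0.00 ± 0.12, adjusted p = 0.995), and LPS was below both (−1.42 ± 0.12, adjusted p = 2.26e-08).

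Bbc3 (PUMA), a pro-apoptotic BH3 gene, was the counterpart among R848-specific falls. It stood at 13.8, 13.6, 13.04 and 18.8 CPM with LPS, 3.39, 4.93, 4.05 and 4.75 CPM with R848 and 14.03, 16.9, 14.97 and 17.8 CPM in NT, so that only R848 stood apart (−1.88 ± 0.16, adjusted p = 1.88e-08). Bmf, another BH3 gene, fell with both ligands, to 2.35 CPM with LPS and 5.27 CPM with R848, against 96.2 CPM in NT. The survival genes Bcl2a1d, Bcl2a1b and Cflar rose with both, Cflar by 4.19 ± 0.11 and 3.76 ± 0.11; the Bcl2a1 copies are near identical, so their counts are uncertain in how they divide. Of 29 cell death genes 18 rose and 4 fell with LPS, and 17 rose and 6 fell with R848. Rises over all tested genes were 30.4% with LPS and 29.0% with R848.

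Among the genes that fell with both ligands were those of several cell-surface receptors and of a regulator of G-protein signalling. Cxcr4, the receptor of CXCL12 (chromosome 1), stood at 5.50, 3.32, 4.07 and 6.73 CPM with LPS, 9.40, 7.26, 9.63 and 11.3 CPM with R848 and 482, 442, 435 and 438 CPM in NT. The groups did not overlap, and Cxcr4 fell by 6.52 ± 0.18 on the log2 scale with LPS (adjusted p = 5.03e-15) and by 5.57 ± 0.16 with R848 (adjusted p = 2.46e-14), with a direct difference of −0.95 ± 0.17 (adjusted p = 0.000681).

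Cnr2, the cannabinoid receptor of immune cells, fell further with LPS: it stood at 0.282, 0.0707, 0.207 and 0.227 CPM with LPS, 1.08, 0.851, 0.698 and 0.938 CPM with R848 and 37.7, 43.7, 43.5 and 36.6 CPM in NT (−7.64 ± 0.21 and −5.46 ± 0.16). Lpar6, a lysophosphatidic acid receptor, averaged 2.33 CPM with LPS, 5.75 CPM with R848 and 164 CPM in NT. Rgs2, a regulator of G-protein signalling, fell alike with both, to 10.5 ± 1.26 CPM with LPS and 8.72 ± 2.21 CPM with R848, against 353 ± 19.5 CPM in NT. Gpr183, the oxysterol receptor, fell more with R848, to 11.8 ± 4.22 CPM with LPS and 4.28 ± 1.64 CPM with R848, against 25.5 ± 0.855 CPM in NT.

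Other G-protein-coupled receptors rose: of 37 tested, 18 rose and 15 fell with LPS, and 16 rose and 12 fell with R848. Of all tested genes 30.4% rose and 30.3% fell with LPS, and 29.0% rose and 26.9% fell with R848. Adora2a, an adenosine receptor, averaged 135 ± 7.73 CPM with LPS, 79.7 ± 10.3 CPM with R848 and 0.452 ± 0.314 CPM in NT. Hcar2, Gpr84 and the formyl peptide receptors Fpr1 and Fpr2 rose by 4.68 to 7.17 on the log2 scale with LPS and 4.76 to 7.69 with R848, none with a direct difference past the threshold; Fpr2 and Hcar2 passed with the mouse as a block.

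Among the Src-family kinases and their regulators, the list to which Lyn belongs, 12 of 16 rose and 2 fell with LPS. With R848 11 rose and 2 fell, and with the mouse as a block 4 fell. Rises over all tested genes were 30.4% with LPS and 29.0% with R848. Src stood at 299, 271, 255 and 227 CPM with LPS, 124, 105, 115 and 121 CPM with R848 and 7.92, 7.08, 7.37 and 5.71 CPM in NT, without overlap (5.22 ± 0.12 and 4.06 ± 0.12). Fgr, another member, rose by 1.61 ± 0.10 and 0.87 ± 0.10. Csk, the kinase that inhibits the family, fell by 0.63 ± 0.10 on the log2 scale with each ligand. Inpp5d (SHIP1), the lipid phosphatase that acts downstream of inhibitory receptors, fell to 96.2 ± 21.2 CPM with LPS and 150 ± 20.8 CPM with R848, against 344 ± 32.7 CPM in NT.

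Many of the receptors listed as inhibitory recruit phosphatases after phosphorylation by Src-family kinases. On this list 10 of 20 genes rose and 4 fell with LPS, and 11 rose and 5 fell with R848. Of all tested genes 30.4% rose with LPS and 29.0% with R848. The direct comparison called 3 of the list lower with LPS, and 7 with the mouse as a block. Fcgr2b, the inhibitory Fc receptor, averaged 546 ± 102 CPM with LPS, 330 ± 55.7 CPM with R848 and 41.3 ± 2.42 CPM in NT. Pirb rose by 1.72 ± 0.09 and 1.62 ± 0.09, and Cd300lf fell by 2.82 ± 0.16 and 2.54 ± 0.16. The activating Fc receptor Fcgr1 was opposite, at 354 CPM with LPS, 171 CPM with R848 and 269 CPM in NT. Clec4e (Mincle), a receptor of mycobacterial glycolipid, rose alike with both, by 4.60 ± 0.15 and 4.64 ± 0.15.

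Costimulatory and adhesion genes rose with both ligands in 17 of 19 cases, and Cd80 and Itgam did not pass with either. Cd40, the receptor of T cell help, averaged 682 ± 88.9 CPM with LPS, 250 ± 15.3 CPM with R848 and 2.90 ± 0.812 CPM in NT. In antigen presentation the ligands differed: 24 of 27 genes rose with LPS and 14 rose and 1 fell with R848, and with the mouse as a block 4 fell with R848. Tap1, the peptide transporter, averaged 323 CPM with LPS, 77.0 CPM with R848 and 68.9 CPM in NT and so rose with LPS (2.23 ± 0.10), while its R848 value of 0.17 ± 0.10 did not pass. Psmb9 and B2m were LPS-specific rises as well, though with the mouse as a block Psmb9 passed as lower with R848 (adjusted p = 0.0201) and without mouse 2 or 3 the direct difference of B2m did not pass (adjusted p = 0.0756 and 0.0666), whereas the class II gene H2-Ab1 rose by 1.95 ± 0.23 and 1.90 ± 0.23. The direct comparison called 13 of the 27 higher with LPS, and 20 with the mouse as a block.

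Metabolic genes changed with both ligands. Acod1, which makes itaconate, was among the most abundant induced genes, at 8115 ± 1039 CPM with LPS, 4131 ± 628 CPM with R848 and 32.7 ± 11.0 CPM in NT. Nos2, the inducible nitric oxide synthase, stood at 98.2, 118, 83.6 and 43.4 CPM with LPS, 19.4, 34.1, 29.6 and 28.9 CPM with R848 and at or below 0.180 CPM in NT. Of 29 glycolysis and HIF-1 genes, 21 rose and 3 fell with LPS and 19 rose and 3 fell with R848. Pfkfb3, which makes an activator of glycolysis, averaged 1096 CPM with LPS, 435 CPM with R848 and 38.0 CPM in NT, and the glucose transporter Slc2a1 rose by 2.68 ± 0.16 and 2.48 ± 0.16. Vegfa, a growth factor of vessels, fell by 1.63 ± 0.12 on the log2 scale with LPS and by 0.43 ± 0.12 with R848.

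Genes of G1/S and DNA replication mostly fell: 25 of 46 with LPS and 26 of 46 with R848, with 4 and 5 rising. E2f2, a cell-cycle transcription factor, fell to 2.80 ± 0.861 CPM with LPS and 7.36 ± 0.747 CPM with R848, against 55.6 ± 7.04 CPM in NT, and Cdt1, a replication licensing factor, fell by 2.82 ± 0.18 and 2.60 ± 0.18. Ccnd2 (cyclin D2) went against the list: it averaged 86.2 ± 30.1 CPM with LPS, 10.5 ± 3.89 CPM with R848 and 1.38 ± 0.450 CPM in NT. Mki67, a proliferation marker, rose to 284 ± 34.4 CPM with LPS and 219 ± 58.4 CPM with R848, against 28.9 ± 6.43 CPM in NT. On the G2/M list 8 of 50 genes rose and 15 fell with LPS, and 8 rose and 12 fell with R848, where 30.3% and 26.9% of all tested genes fell.

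Ribosome biogenesis genes rose, 21 of 28 with LPS and 20 of 28 with R848, with median log2 fold changes of 0.72 and 0.54; Rrs1, an assembly factor of the large subunit, rose by 2.71 ± 0.12 and 2.34 ± 0.11. Lysosome genes changed little: 9 of 28 fell and 3 rose with LPS, and 14 fell and 2 rose with R848, with medians of −0.09 and −0.22. Falls over all tested genes were 30.3% with LPS and 26.9% with R848. Tfeb, the transcription factor of lysosome genes, fell by 2.85 ± 0.15 on the log2 scale with LPS and by 1.44 ± 0.13 with R848. Of the stress-response genes Herpud1 rose by 1.88 ± 0.21 and 2.79 ± 0.22, and Ddit3 (CHOP) fell by 0.62 ± 0.15 and 0.56 ± 0.15. Among macrophage identity genes, the lineage factor Cebpa fell with both (by 2.32 ± 0.11 and 1.48 ± 0.10), and Spi1 (PU.1) rose by 1.11 ± 0.10 and 1.00 ± 0.10.

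The size of each response was then set against that in the other genotypes, by a test of the difference between responses (an interaction term). No gene passed in any of 6 such tests by edgeR, that is 0% of 13986 genes for LPS and for R848 against WT, LynBKO and LynKO. At an unadjusted p under 0.05 there were 366 and 328 genes against WT, 261 and 213 against LynBKO and 578 and 641 against LynKO, for LPS and R848. In the same order these were 2.617% and 2.345%, 1.866% and 1.523%, and 4.133% and 4.583% of the tested genes. Each share is under the 1 in 20 that chance alone gives where no gene differs. The fit behind these tests has no term for mouse, although each mouse gave all 3 treatments. A share under 1 in 20 therefore does not show that no gene differs. DESeq2 called 0 genes in 5 of the tests and 2 in the R848 test against WT. Without the filter on low counts edgeR called 20 and 15 genes against WT, 20 and 4 against LynBKO and 25 and 30 against LynKO. The counts of 0 therefore hold for edgeR without a block on the filtered table with all mice, and not under every alternative. For Socs3, Frmd6, Ccl7 and Ptgs2 in the tests given below, the estimates without the filter were nearly the same and the SEs smaller. The cause of the smaller SEs was not tested. The adjusted p-values without the filter are given as alternatives only, and no genotype difference is read from them. The LynAKO minus WT interval of 70.7% of genes for LPS and 71.3% for R848 lay within a 2-fold difference either way, so a larger difference cannot be set aside for the other genes. In simulated counts the LPS test against WT found 79.1% of genes given a 2-fold difference and 35.8% of those given a 1.5-fold difference. Only genes above a minimum expected count in LynAKO NT were given a difference. All groups otherwise had the LynAKO NT profile, with no ligand response and no effect of mouse. The recovery therefore does not cover genes with few counts in NT.

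Socs3 had the smallest p against WT for R848, with a LynAKO minus WT difference of 0.82 ± 0.17 (95% interval 0.48 to 1.17; edgeR adjusted p = 0.203, DESeq2 adjusted p = 0.00658), and 0.72 ± 0.17 for LPS (0.38 to 1.06). Without the low-count filter both passed, at 0.82 ± 0.13 for R848 (adjusted p = 2.88e-07) and 0.71 ± 0.13 for LPS (adjusted p = 7.68e-05). In the filtered table it passed edgeR for R848 without LynAKO mouse 2 (adjusted p = 0.0144) or without WT mouse 2 (0.0122). With ligand its levels overlapped between the genotypes, at 1784 to 1969 CPM in LynAKO against 1657 to 1914 CPM in WT with R848. Without ligand it stood at 5.86, 8.51, 5.80 and 5.40 CPM in LynAKO and 14.8, 7.83, 9.93 and 12.0 CPM in WT. The next smallest for R848 was Frmd6, at −1.09 ± 0.25 (−1.59 to −0.60, DESeq2 adjusted p = 0.0359). By edgeR without the filter its difference was −1.09 ± 0.16 (adjusted p = 3.7e-08). Frmd6 stood at 43.8 ± 11.6 CPM in LynAKO against 62.1 ± 9.88 CPM in WT with R848.

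For LPS against WT the smallest p was that of Ccl7, a monocyte chemokine, at 3.41 ± 0.80 (1.80 to 5.01, adjusted p = 0.721). Without the low-count filter the difference of Ccl7 was 3.40 ± 0.35 (adjusted p = 8.36e-18). Its NT levels were 0.337, 0.159, 0.0382 and 0.0900 CPM in LynAKO and 2.23, 2.35, 0.153 and 0.110 CPM in WT, where mice 1 and 2 stood above the other two. Ptgs2 had a LynAKO minus WT difference of 1.39 ± 0.48 (0.42 to 2.36) for LPS, and 1.38 ± 0.17 without the filter (adjusted p = 1.38e-12). NT levels of Ptgs2 were 0.649 to 1.43 CPM in LynAKO and 1.499 to 4.00 CPM in WT. Rsad2 gave 0.46 ± 0.36 (−0.26 to 1.18), Tnf 0.41 ± 0.25 (−0.10 to 0.92) and Cxcr4 −0.01 ± 0.20 (−0.42 to 0.39), none past the threshold under any alternative run.

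The libraries labelled LynKO still held counts in Lyn, at 90.6 ± 7.09 CPM with LPS, 104 ± 10.6 CPM with R848 and 67.6 ± 4.15 CPM in NT, below every LynAKO and WT library of the same treatment. The LynAKO minus LynKO difference in the response of Lyn to LPS was 0.47 ± 0.12 and did not pass (adjusted p = 0.611). Fnbp1l, a membrane-bending adaptor, gave 0.75 ± 0.17 for LPS and 0.72 ± 0.17 for R848 (adjusted p = 7.48e-05 and 8.73e-05 without the low-count filter). It was 1 of 4 genes that passed in each LynKO test with the mouse as a block, beside Clic4 and Osbpl3 in both, Pcdh7 for LPS and Rasa2 for R848; Osbpl3 and Pcdh7 are named after their values were seen. With the block and without LynKO mouse 4, whose NT library held male and female transcripts, 5 genes passed for LPS and 0 for R848. The 5 were Fnbp1l, Clic4, Mki67, Htra1 and Tmcc3, the last 3 named after their values were seen, and for R848 Fnbp1l had an adjusted p of 0.0838 and Clic4 of 0.143. Without the block, leaving out mouse 4 of LynKO or of LynBKO gave 0 genes in each test. Against LynBKO the smallest p was that of Clcf1, a cytokine of the interleukin 6 family, at 2.56 ± 0.63 for LPS and 2.41 ± 0.64 for R848 (2.63 and 2.34 without LynBKO mouse 4; adjusted p = 4.97e-05 and 0.00112 without the low-count filter). Its NT levels were 0 to 0.180 CPM in LynAKO and 0.433 to 0.715 CPM in LynBKO. The sex labels of LynBKO NT mice 2 and 3 are exchanged against those of their ligand libraries, which touches the pairing of these libraries.

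**Figure D5:**
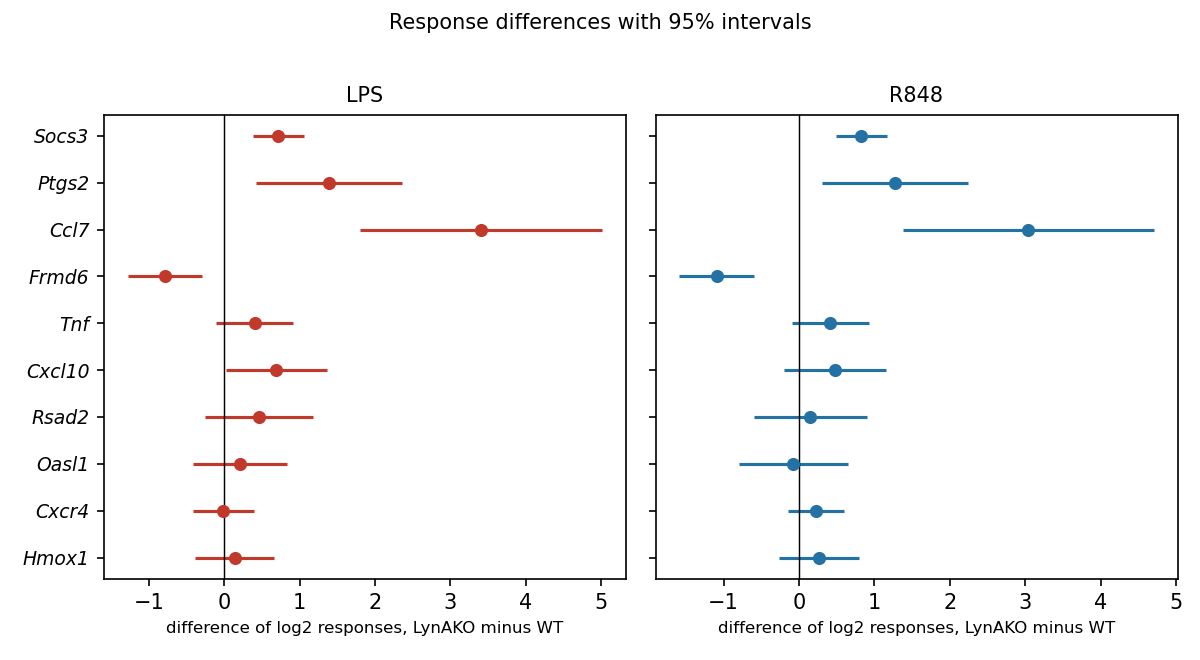
Difference of the log2 response to LPS (left) and R848 (right), LynAKO minus WT, for 10 genes named in the text; points are edgeR estimates and lines the 95% intervals. None of the 20 differences passed the adjusted threshold by edgeR in the filtered table with all mice, and the intervals of Socs3, Ptgs2 and Ccl7 lie above 0 for both ligands.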

How the data were processed

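Polyadenylated RNA of the 48 libraries was sequenced in pairs on a NovaSeq. Per the submitters' processing notes, the tools were Trimmomatic 0.36, STAR 2.5.2b, featureCounts (Subread 1.5.2) and DESeq2, with the mouse build GRCm38. Which annotation release was counted, and whether by strand, is not given in the sources used here. The authors deposited 1 table of raw counts for 49315 gene IDs, with no normalization. Of these IDs, 49056 were given a symbol and position from GENCODE M21.

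Genes were kept where filterByExpr of edgeR 4.0.16 (R 4.3.3) passed them over the 12 groups of all 48 libraries (13986 genes). LPS, R848 and NT of LynAKO were fitted together in 12 libraries with TMM factors and the quasi-likelihood test, without a block, and p-values were adjusted over all kept genes. Response differences were interaction contrasts in a fit of all 48 libraries in 12 groups, also without a block. CPM use TMM factors over all libraries. Errors after CPM are SDs (n = 4) and after log2 fold changes SEs. Where a gene had 0 counts in NT, a floor of 3 counts over the group gave a lower bound; counting intervals cover counting error only. The fits recovered 89.55% of genes given a 2-fold change in simulated counts for LPS against NT.

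Alternatives were DESeq2 1.42.0, RLE scaling, testing without the low-count filter, a term for sex, a block for mouse number, other sample sets and leaving out each mouse; the block without mouse 4 of LynBKO or LynKO was added after seeing the data. The labels give the groups the same replicate numbers, and same-numbered libraries deviated together in all 12 pairs (r from 0.1885 to 0.4203). The genes named are those on 36 lists of known function plus the leading genes of each comparison and class, with a mean of at least 5 CPM for the leading genes; the members, lists and classes were chosen with earlier results of these data known. Promoter sequences are from RefSeq (GRCm38.p6).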

Additional observations from a re-analysis of the deposited data

Results flagged for a closer look

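In 18 of 405 groups of 4 libraries examined for the genes described above, 1 library stood apart from the other three, with a gap to the nearest, as a share of the range, above Dixon's 95% critical value; chance alone gives about 1 in 20. With LPS, mouse 4 was highest for Bbc3 (18.8 CPM, the others 13.04 to 13.76 CPM) and lowest for Cxcl3 (390.9 CPM, the others 517.2 to 523.5 CPM), Gclc (24.7 CPM, the others 36.1 to 36.6 CPM) and Ptges (315.7 CPM, the others 466.0 to 488.9 CPM). Mouse 2 was highest with LPS for Lyn (256.6 CPM, the others 205.7 to 208.1 CPM) and Tap1 (386.7 CPM, the others 298.6 to 307.8 CPM).

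With R848, mouse 4 was lowest for Ccl7 (3.69 CPM, the others 7.32 to 8.07 CPM), Cflar (802.3 CPM, the others 923.8 to 948.4 CPM) and Tlr4 (53.9 CPM, the others 89.1 to 92.6 CPM), and mouse 3 was lowest for Lpar6 (3.77 CPM, the others 6.38 to 6.42 CPM). Without ligand, mouse 1 was highest for Cxcr4 (482.2 CPM, the others 434.9 to 441.9 CPM) and lowest for Lyz2 (22450.0 CPM, the others 26470.0 to 27170.0 CPM), and mouse 2 was highest for Socs3 (8.51 CPM, the others 5.40 to 5.86 CPM). Mouse 4 was highest in NT for Id3 (306.1 CPM, the others 240.9 to 250.8 CPM) and Psmb9 (52.6 CPM, the others 37.1 to 39.4 CPM) and lowest for Tnfaip3 (13.9 CPM, the others 23.4 to 24.6 CPM). For Il6 and Cxcl11 the single count of NT mouse 3 (0.0382 CPM) was the only one in the group.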

How the results depend on the processing

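The counts for LPS and for R848 against NT stayed within 1.5 times the reported ones under all alternatives run, at 7303 to 8414 and 6364 to 7541 without 1 mouse. LPS against R848 called 4048 genes with mouse number as the replicate block and 1450 to 3174 without 1 mouse. The block gave 322 R848-specific rises, 399 LPS-specific falls, 204 R848-specific falls and 166 opposite genes. Leaving out 1 mouse gave 2971 to 3271 shared rises, 2477 to 3052 shared falls, 271 to 483 LPS-specific rises, 108 to 334 LPS-specific falls, 63 to 210 R848-specific rises, 74 to 176 R848-specific falls and 56 to 96 opposite genes.

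Response differences were called in 20 and 15 genes against WT (LPS, R848), 20 and 4 against LynBKO and 25 and 30 against LynKO with no filter on low counts. DESeq2 called 2 for R848 against WT, and the block 4 and 4 against LynKO; with the block and without LynKO mouse 4, added after seeing the data, there were 5 and 0, and without LynBKO mouse 4 there were 0 and 0 against LynBKO. Without 1 mouse there were 0 to 1 for R848 against WT (Socs3) and for LPS against LynKO (Ttc30a1, named after its value was seen), and 0 to 0 in the other tests. No described gene reversed a call. Of 5849 alternative values for these genes, 51 lost a call and 107 gained one; besides the calls given above, the block made the LPS against R848 difference of Csf1r, Tlr2, Mki67, Tlr4, Lyn and Tlr7 and the R848 difference of Csf1r and Lyz2 pass, and it changed no other call of a described gene. The causes were not tested. In simulated counts for LPS against NT 47.76% of 1.5-fold changes were recovered; recovery was not computed by depth.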
